A study of Mus musculus with 1183 samples.

Results

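Mac II and Mac V are 2 of the labelled macrophage subtypes among single immune cells of the distal lung of neonatal mice that were exposed to hyperoxia and sampled at postnatal day 7. All cells whose label read Mac II were set against all cells whose label read Mac V, together 93 of 598 cells of the female and 65 of 585 cells of the male. Each cell was sorted into a plate well and its RNA was made into a library with Tn5 transposase, an enzyme that cuts DNA and adds adapters in one step. The cells came from 1 female, FP7hyperoxia (27 Mac II and 66 Mac V cells), and 1 male, MP7hyperoxia (20 Mac II and 45 Mac V cells), so animal and sex cannot be told apart. Cells of all groups compared here share the hyperoxia treatment, and the labels used here give neither strain nor genotype. Reads were summed over the cells of a subtype within an animal, which gives 2 libraries a side, and the animal was the replicate. How the subtype names were assigned is not given in the sources used here. If they rest on expression in these same cells, a called gene describes how the labelled classes differ and is no independent test that 2 classes exist.

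Macrophages of the lung fall into alveolar macrophages, which live in the airspace, take up surfactant and carry Siglecf, and interstitial macrophages, which live in the tissue and often carry complement C1q and the mannose receptor Mrc1. Monocytes reach the lung from the blood. Classical monocytes carry Ly6c2 and the chemokine receptor Ccr2, whereas nonclassical monocytes crawl along the vessel wall, carry little Ly6c2, and depend on the nuclear receptor Nr4a1. When monocytes enter a tissue they can turn into macrophages, losing monocyte genes while genes of uptake and lysosomal breakdown come up. Ccr2 and Fn1 (fibronectin) are commonly used to mark cells of recent monocyte origin, Mmp12 (macrophage elastase) to mark macrophages that remodel matrix, and Plac8 to mark monocytes.

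The summed libraries held 43758124 and 26507095 reads for Mac II (female, male) and 83672722 and 46038255 reads for Mac V. Single cells held between 85727 and 5598442 reads. Molecular identifiers are not mentioned for these libraries. Reads can therefore not be taken as independent molecules, and intervals cover counting error only. Levels are counts per 1000000 reads of the cell or of the summed library (CPM), which are not divided by gene length, so they compare 1 gene between samples and not 2 genes with each other. All Mac II cells and all but 1 of the Mac V cells came from the CD45 (pan-leukocyte) gate, on 2 plates per animal. One female plate was sequenced in run DC28 and the other 3 plates in run DC35.

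Mac II and Mac V both carried genes of the mononuclear phagocyte lineage. Genes called higher in Mac II included some of endocytosis, lysosome and lipid handling. Those called higher in Mac V included some monocyte, interferon-linked and adhesion genes. No list covered endocytosis, which is named here for Dab2 and Mrc1. Most members of the lists behind the other themes were not called. The gene lists were chosen with earlier results of these data known, so counts over them describe the subtypes and are no independent test. Of 15225 genes tested with edgeR's quasi-likelihood test, 98 (0.644%) were called at an adjusted p under 0.05: 44 higher in Mac II (0.289%) and 54 higher in Mac V (0.355%). The number rests on how the spread between animals is estimated. It was taken from the 8 subtypes that had 20 or more cells per animal. A fit of Mac II and Mac V alone called 2.14% of its 11522 genes, one of all 15 subtypes called 8 genes higher in Mac II and 10 higher in Mac V, and DESeq2 called 814 and 663. Without the female Mac II library 62 genes were called, without the male one 47, without the female Mac V library 37 and without the male one 45. Of the 98 calls, 68 were also called in the fit of Mac II and Mac V alone, 97 by DESeq2 and 84 by limma voom, and in none of these fits did a called gene change direction. Called genes were not all present in most cells. Among the 44 higher in Mac II, 14 were at 50 CPM or more in at least 50% of Mac II cells in each animal, and 12 were so in under 20% of them. For Mac V these numbers were 19 and 18 of 54.

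The genes named first were the 12 of each direction with the largest fitted change among called genes that were present in at least 50% of the cells of the higher subtype in each animal. They are Pald1, Dab2, Hvcn1, Hebp1, Actn1, Spp1, Mrc1, Myof, Net1, Ctsd, Tspan32 and Cd9 for Mac II, and Ifitm6, Hp, Plac8, Pla2g7, Klf2, Ifitm2, Adgre5, Tmpo, Nr4a1, Limd2, Pou2f2 and Samsn1 for Mac V. In all 24, the 4 CD45 plates of the higher subtype lay above the 4 plates of the other. The same held for 38 of the 44 and 47 of the 54 called genes, against 705 and 812 of all 15225 genes tested. The plates are parts of the summed libraries from which these genes were picked, so this describes their spread and is no added test. The fit of all 15 subtypes called 8 of the 24: Pald1, Dab2, Hvcn1, Mrc1, Cd9, Ifitm6, Hp and Limd2. Voom did not call Spp1 (adjusted p 0.0516) and Ctsd, and the fit of Mac II and Mac V alone did not call Nr4a1 (0.0528). In run DC35 alone the calls of Dab2 (0.0681), Spp1, Myof, Net1, Ifitm2, Tmpo, Nr4a1, Pou2f2 and Samsn1 were lost.

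**Figure D1:**
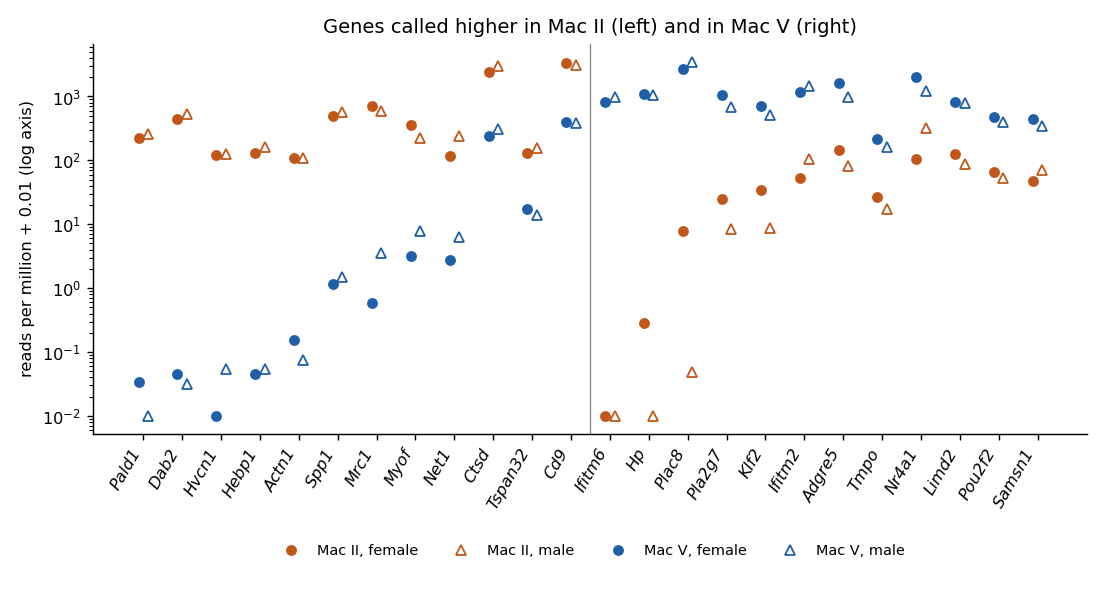
Level in the 4 summed libraries (CPM plus 0.01, log axis) of the 12 genes with the largest called change in each direction. Filled circles are the female and open triangles the male, orange is Mac II and blue is Mac V; the libraries of the 2 subtypes do not overlap for any of the 24 genes, and those on the lowest line (0.01) had no read.

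Dab2 and Mrc1, genes of endocytosis and uptake, were present in every Mac II cell. Here and below the female value stands before the male value. Dab2, a clathrin adaptor of endocytosis, was at 441 and 523 CPM in Mac II and at 0.0359 and 0.0217 CPM in Mac V, where all cells together held 4 reads. It was at 50 CPM or more in 47 of 47 Mac II cells and in 0 Mac V cells, which allows a share of up to 2.70%. The log2 fold change was 13.84 ± 1.65 (SE, edgeR adjusted p 0.00363). Mrc1, the macrophage mannose receptor, was at 715 and 584 CPM in Mac II and at 0.574 and 3.50 CPM in Mac V (log2 fold change 8.28 ± 1.18, adjusted p 0.00748). It too was present in 47 of 47 Mac II cells, and in 1 Mac V cell. Both genes thus separated the subtypes in both animals library by library without overlap. The call of Dab2 held when each of the 4 libraries was left out in turn, whereas that of Mrc1 was lost without the female Mac V library (adjusted p 0.0589).

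Other named Mac II genes act in the matrix, the membrane or the cytoskeleton. Spp1 was the 1 call among 20 matrix genes, whose median log2 fold change was 0.39. Over all genes tested 0.289% were called higher in Mac II. Both Mac II libraries lay above both Mac V libraries in 8 matrix genes, and the reverse held in 6. Over all genes tested these shares were 20.8% and 20.1%. Thbs1 was among the 6, at 28.4 and 62.9 CPM in Mac II and 882 and 1506 CPM in Mac V (edgeR adjusted p 0.215). Spp1, the secreted matrix protein osteopontin, was at 499 and 580 CPM in Mac II and 1.15 and 1.5 CPM in Mac V (log2 fold change 8.62 ± 1.31, adjusted p 0.0106), and it reached 50 CPM in 17 of 27 female and 13 of 20 male Mac II cells. Myof (myoferlin, a membrane repair protein) was at 351.7 and 226.7 CPM against 3.18 and 7.71 CPM. Actn1, an actin crosslinker, was at 108.6 and 110.4 CPM against 0.143 and 0.0652 CPM. For Spp1, Myof and Actn1 the lowest Mac II library lay more than an order of magnitude above the highest Mac V library. Hvcn1, a voltage-gated proton channel, was at 119.3 and 125.9 CPM in Mac II with 2 reads in all Mac V cells (adjusted p 0.00363), and Pald1 was at 227.4 and 260.99 CPM, again with 2 reads in Mac V (0.00496). Hebp1, a heme-binding protein, was at 132.4 and 159.6 CPM against 0.0359 and 0.0434 CPM, Net1, an exchange factor for RhoA, at 115.9 and 242.8 CPM against 2.75 and 6.39 CPM, and the tetraspanin Tspan32 at 131.7 and 157.8 CPM against 17.1 and 14.2 CPM, again without overlap. The call of Hvcn1 held without each library in turn. Those of Spp1 (adjusted p 0.136 and 0.115), Actn1 (0.116 and 0.127), Pald1 (0.0567 and 0.0665) and Tspan32 (0.0636 and 0.0902) were lost without the female and without the male Mac V library. Those of Myof (0.0587 to 0.212) and Hebp1 (0.0718 to 0.219) were lost without each of the 4 libraries, and that of Net1 without the male Mac II (0.0838), female Mac V (0.151) and male Mac V library (0.0794).

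Lysosome and lipid genes were called in 4 of 20 list members, all higher in Mac II (Cd9, Cd63, Abcg1 and Ctsd), against 0.289% of all genes tested. The list median log2 fold change was 1.53 against 0 over all genes tested. Ctsd, the lysosomal protease cathepsin D, was at 2460 and 2992 CPM in Mac II and 240.2 and 304.96 CPM in Mac V (log2 fold change 3.27 ± 0.36, adjusted p 0.00363). Cd9, a tetraspanin of the cell surface, was at 3363 and 3155 CPM against 405 and 380.2 CPM (3.0 ± 0.36, adjusted p 0.00363). The calls of Ctsd and Cd9 held without each library in turn, but that of Ctsd was lost with voom (adjusted p 0.299) and with all 15 subtypes (0.411). Abcg1, which exports cholesterol, was at 1253 and 1440 CPM against 198.1 and 280.9 CPM (2.44 ± 0.39, adjusted p 0.0127), and its call was lost without the male Mac II library (adjusted p 0.077), the female Mac V library (0.151) and the male Mac V library (0.0794), with voom (0.241) and with all 15 subtypes (0.591). Cd63, a lysosomal tetraspanin, was at 178.2 and 249.9 CPM against 6.24 and 3.21 CPM (adjusted p 0.0359, lost without each library in turn, 0.0811 to 0.280). Its processed copy Cd63-ps was called as well, and reads may be split between these near-identical sequences. Both Mac II libraries lay above both Mac V libraries in 12 of the 20 members, and the reverse held in 2. The former held for 20.8% of all genes tested and for 1131 of the 4434 that averaged 50 CPM or more in either subtype. Among members that were not called, Lgals3 (galectin-3) was at 2206 and 2645 CPM in Mac II and 2451 and 2650 CPM in Mac V, and Plin2, which coats lipid droplets, at 687 and 874 against 732 and 772 CPM.

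Lpl and Apoe were not called although their libraries did not overlap. Lpl (lipoprotein lipase) was at 1766 and 1296 CPM in Mac II and 84.3 and 43.5 CPM in Mac V (log2 fold change 4.53 ± 1.56, adjusted p 0.269), and it was at 50 CPM or more in 44 of 47 Mac II cells against 13 Mac V cells. Apoe was at 6530 and 6543 CPM against 1980 and 2004 CPM (adjusted p 0.391). The fit of Mac II and Mac V alone gave an adjusted p of 0.00404 for Lpl and 0.0139 for Apoe, and voom 0.0379 and 0.945.

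Most genes of the alveolar macrophage list leaned to Mac II. Of 12 members 2 were called, both higher in Mac II (Siglecf and Cidec), against 0.289% of all genes tested. In 8 members both Mac II libraries lay above both Mac V libraries. This held for 20.8% of all genes tested and for 1131 of the 4434 that averaged 50 CPM or more in either subtype. The list's median log2 fold change was 4.95. It was 6.59 with 1 gene at its bound and the 2 genes with at most 3 reads in each subtype left out. Siglecf, a sialic acid receptor that defines mature alveolar macrophages, was at 146.03 and 86 CPM in Mac II with 1 read in all Mac V cells (adjusted p 0.00521, and 0.0618 without the female Mac V library). It reached 50 CPM in 37% of female (10 of 27 cells, exact 95% interval 19.4 to 57.6%) and 45% of male Mac II cells (9 of 20, 23.1 to 68.5%), so fewer than all Mac II cells carried it at that level. Cidec, a lipid droplet protein, was present in 6 of 47 Mac II cells and had no read in Mac V, at least 1001-fold lower. Its call was lost with the animal as a block (adjusted p 0.0669) and without each library in turn (0.0873 to 0.219). Plet1, which was at 1101 and 873 CPM in Mac II against 0 and 1.69 CPM, was not called (adjusted p 0.137). Libraries overlapped for Pparg (45.5 and 82.9 CPM in Mac II, 67.9 and 69.5 CPM in Mac V) and Marco (133.3 and 7.73 against 32.2 and 0 CPM). Of the members without overlap, Car4 and Ear1 each reached 50 CPM in 4 and Chil3 in 7 of 47 Mac II cells. The defining markers Fabp1 and Krt79 held 0 and 2 reads in all Mac II cells, and Ear1 and Ear2 are near-identical genes whose reads may be mixed.

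Interstitial macrophage genes gave 2 calls of 12, again both higher in Mac II (C1qa and Mrc1), against 0.289% of all genes tested. The list median was 2.92. It was 4.92 with 2 genes at their bound and 3 genes with at most 3 reads in each subtype left out. Treated so, all genes tested had a median of -0.03. C1qa, a chain of complement C1q, was at 204.2 and 122.4 CPM in Mac II and had no read in Mac V, at least 7495-fold lower (adjusted p 0.00457). The call held without each library but was lost with voom (0.0959) and with all 15 subtypes (0.118). Only a few cells carried it. It reached 50 CPM in 5 of 27 female (18.5%, exact 95% interval 6.30 to 38.1%) and 3 of 20 male Mac II cells (15%, 3.21 to 37.9%), and 1 cell gave 38.3% of the female and 58.2% of the male reads. The other C1q chains on the list were not called. C1qb was at 865 and 752 CPM in Mac II and 33.4 and 0 CPM in Mac V (edgeR adjusted p 0.449). C1qc was at 144.9 and 164.9 CPM against 4.30 and 0 CPM (0.310). In Mac V, 1 cell reached 50 CPM of C1qb and 1 cell reached 50 CPM of C1qc. Several further markers of the list were absent or nearly so in Mac II. Folr2, Ccl7 and Ccl12 had no read in either subtype, and Cd163 had none in Mac II. Pf4 and Gas6 had 6 and 7 reads in all Mac II cells. In Mac IV, another labelled macrophage subtype, C1qa was at 3916 and 5218 CPM and Pf4 at 4729 and 8575 CPM. Pairs of markers were counted per cell after their levels had been seen. Siglecf was present in 19 and C1qb in 13 of the 47 Mac II cells, with 4 cells carrying both and 19 carrying neither.

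Plac8, Hp and Ifitm6 marked Mac V. Plac8, a small cysteine-rich protein used as a monocyte marker, was at 2691 and 3505 CPM in Mac V and at 7.95 and 0.0377 CPM in Mac II (log2 fold change -9.65 ± 1.61, Mac II minus Mac V, adjusted p 0.0162). It was present in all but 1 of the Mac V cells and in 1 of 47 Mac II cells, and the call was lost without the female (adjusted p 0.0522) and without the male Mac V library (0.0537). Hp, haptoglobin, which binds free haemoglobin, was at 1098 and 1047 CPM in Mac V and 0.274 and 0 CPM in Mac II (adjusted p 0.00485). Ifitm6, of the interferon-induced transmembrane family, was at 824 and 989 CPM in Mac V with no read in any of the 47 Mac II cells, at least 20677-fold lower (adjusted p 0.00169). For these 3 genes the summed libraries of the subtypes did not overlap, although single cells could, and the calls of Hp and Ifitm6 held without each library in turn. Pla2g7, which breaks down platelet-activating factor, was at 1063 and 677 CPM against 25.2 and 8.38 CPM (-5.75 ± 0.66, adjusted p 0.00363, held without each library). Adgre5 (CD97, an adhesion receptor) was at 1646 and 982 CPM against 144.6 and 82 CPM (-3.59 ± 0.66, adjusted p 0.0302, lost without each library, 0.0626 to 0.256). Limd2 was at 810 and 787 CPM against 125.5 and 86.5 CPM (adjusted p 0.00363, held without each library), Samsn1, a signalling adaptor, at 440 and 339.3 CPM against 48.4 and 71 CPM (0.0238, lost without each library, 0.0794 to 0.215), and Tmpo, a protein of the nuclear lamina, at 213.02 and 159.8 CPM against 26.8 and 17.4 CPM (0.00934). The call of Tmpo was lost without the male Mac II (0.119) and the female Mac V library (0.0636).

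**Figure D2:**
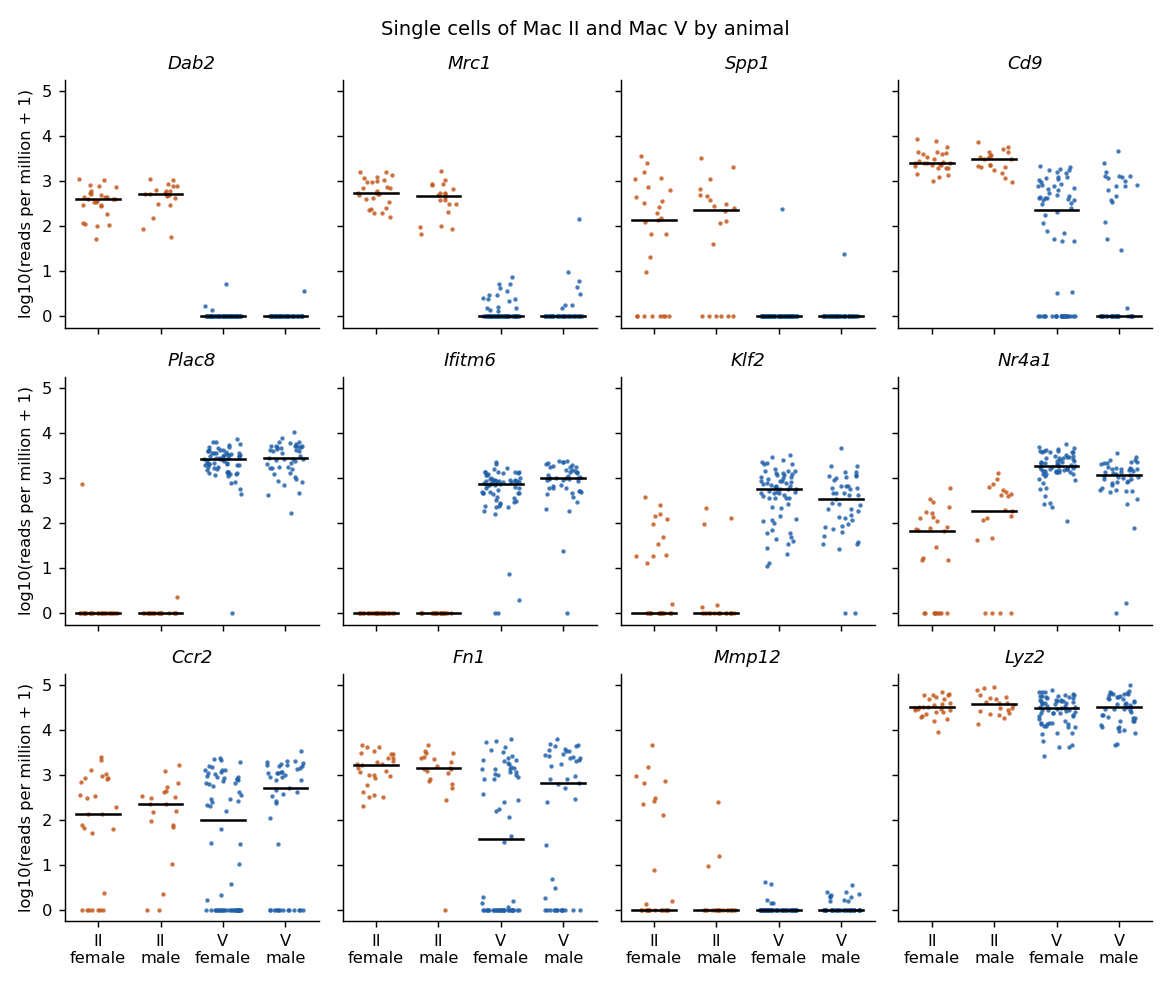
Each point is 1 cell, placed by log10(CPM + 1) of 12 genes in Mac II (orange) and Mac V (blue) of the female and the male, and the black line is the median of the group. Dab2 and Mrc1 are at 50 CPM or more in all 47 Mac II cells and, but for 1 male cell with Mrc1, below it in Mac V. Plac8 and Ifitm6 are below it in Mac II, but for 1 female cell with Plac8, and at or above it in all but 1 and all but 6 of the Mac V cells. Ccr2 and Fn1 split the Mac V cells, and Lyz2 is high in every cell.

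Of 14 interferon-stimulated genes 2 were called, Ifitm2 and Ifitm6, both higher in Mac V, against 0.355% of all genes tested. All 14 members of the list had a negative fitted log2 fold change, with a median of -8.48, or -7.95 with the 4 genes that had no read in one subtype set to the bound that 3 reads give. Ifitm2 was at 1167 and 1472 CPM in Mac V and 52.7 and 106.3 CPM in Mac II (log2 fold change -4.10 ± 0.74, adjusted p 0.0278, lost without each library, 0.0792 to 0.218). Ifitm3 was at 2424 and 4441 CPM in Mac V and 6.38 and 0.490 CPM in Mac II, present in all but 2 of the Mac V cells and in 1 of 47 Mac II cells, yet it was not called (-10.01 ± 2.49, adjusted p 0.124, and 0.0139 in the fit of Mac II and Mac V alone). Products of these genes sit in cell membranes and hinder virus entry. Reads could be shared among these related genes, and Ifitm1, the other family member on the list, was low in both subtypes (0 and 36 CPM in Mac II, 9.23 and 46.7 CPM in Mac V). Ifitm6 and Ifitm3 thus had almost no reads in Mac II, whereas Ifitm2 reached 50 CPM in 16 of its 47 cells. Genes that respond to interferon in many cell types were low in both subtypes or scattered. Isg15 was at 0 and 0.0377 CPM in Mac II and 3.08 and 9.27 CPM in Mac V, Ifit3 was present in 8 Mac V cells, and Irf7 was at 148.3 and 194.03 CPM in Mac V against 16.8 and 0.0377 CPM (adjusted p 0.305).

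The promoters of Ifitm2, Ifitm3 and Ifitm6 are shown because both Mac V libraries lay above both Mac II libraries for all 3 genes, which lie on the same strand of chromosome 7. Each stretch runs from 250 bases before to 50 bases after the RefSeq start (build GRCm38.p6, minus strand, 5′ to 3′): chr7:140955912-140956211 for Ifitm2, chr7:141010695-141010994 for Ifitm3 and chr7:141016843-141017142 for Ifitm6. Capitals mark matches, on either strand, to GAAA followed by any 2 bases and GAAA, a pattern close to the interferon-stimulated response element.
Ifitm2: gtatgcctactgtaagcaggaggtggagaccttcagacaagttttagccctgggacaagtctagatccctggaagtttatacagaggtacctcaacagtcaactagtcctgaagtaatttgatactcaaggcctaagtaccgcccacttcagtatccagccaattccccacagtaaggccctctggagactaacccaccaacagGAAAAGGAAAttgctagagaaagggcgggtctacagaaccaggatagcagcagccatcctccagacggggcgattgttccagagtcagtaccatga
Ifitm3: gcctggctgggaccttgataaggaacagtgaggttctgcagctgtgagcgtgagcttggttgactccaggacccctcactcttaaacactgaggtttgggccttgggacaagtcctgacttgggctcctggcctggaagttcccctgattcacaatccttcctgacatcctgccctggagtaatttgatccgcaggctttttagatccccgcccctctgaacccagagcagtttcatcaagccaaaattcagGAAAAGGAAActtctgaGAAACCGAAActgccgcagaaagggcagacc
Ifitm6: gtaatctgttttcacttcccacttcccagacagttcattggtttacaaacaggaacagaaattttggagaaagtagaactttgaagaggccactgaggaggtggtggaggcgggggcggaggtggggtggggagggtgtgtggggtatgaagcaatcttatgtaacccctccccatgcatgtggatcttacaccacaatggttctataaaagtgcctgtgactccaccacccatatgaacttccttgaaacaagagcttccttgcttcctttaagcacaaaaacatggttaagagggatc
The motif matched 1 time in Ifitm2, 2 times in Ifitm3 and 0 times in Ifitm6, and it was found in 3.44% of all 32851 promoters of the same length. A match is a description of letters and not a bound site.

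The 2 monocyte lists gave 6 calls, all higher in Mac V. Of the 12 genes of the classical monocyte list 4 were called, all higher in Mac V (among them Ly6c2, Hp and Plac8). Over all genes tested 0.355% were called higher in Mac V. The list median was -8.10 (-7.95 with the 1 gene at 0 reads set to its bound). Ly6c2, a surface protein of classical monocytes, was at 991 and 1666 CPM in Mac V with 1 read in all Mac II cells (adjusted p 0.0125, lost without the female, 0.135, and without the male Mac II library, 0.119). The related Ly6c1 was at 2.04 CPM or less in Mac V. The nonclassical list had 2 calls of 14, Nr4a1 and Pou2f2, with a median of -3.20. Both Mac V libraries lay above both Mac II libraries in 13 of its 14 members. This compares with 20.1% of all genes tested and with 1345 of the 4434 genes that averaged 50 CPM or more in either subtype. The list was chosen with earlier results of these data known, so the count is a description. Members that were not called included Eno3 (413 and 348.8 CPM in Mac V, 0.0914 and 0 CPM in Mac II, adjusted p 0.0649), Ace (218.5 and 213.1 against 14.4 and 7.24 CPM, 0.194) and Pglyrp1 (896 and 458 against 4.68 and 0 CPM, 0.194). Cx3cr1, the fractalkine receptor, was at 453 and 265.4 CPM in Mac V and 235.3 and 97.2 CPM in Mac II (adjusted p 0.770), and its libraries did not overlap.

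Transcription factors gave 1 call for Mac II and 4 for Mac V among 20, against 0.289% and 0.355% of all genes tested. Nr4a1, the nuclear receptor that nonclassical monocytes need, was at 2051 and 1208 CPM in Mac V and 105.8 and 319.2 CPM in Mac II (log2 fold change -2.98 ± 0.57, adjusted p 0.0359). Klf2, a zinc finger factor of quiescent leukocytes, was at 709 and 511 CPM against 34.8 and 8.60 CPM (-4.87 ± 0.61, adjusted p 0.00363), and this call held without each library. Pou2f2 (Oct-2) was at 473 and 404 CPM against 64.8 and 53.4 CPM (-2.94 ± 0.57, adjusted p 0.0397). All 3 were expressed in Mac II at a lower level and in fewer cells. Runx3 was at 21.6 and 63.4 CPM in Mac V, in 11 cells, and held 5 reads in Mac II (adjusted p 0.0158). Bhlhe41, a repressor found in alveolar macrophages, was at 38.3 and 108.5 CPM in Mac II and 0.872 and 1.24 CPM in Mac V, and its adjusted p of 0.04996 lay just under the threshold. Leaving out a library ended the calls of Pou2f2 (0.127 to 0.273) and Bhlhe41 (0.0731 to 0.313) in each case, of Nr4a1 without the female Mac II (0.200), female Mac V (0.198) and male Mac V library (0.0665), and of Runx3 without the female Mac II (0.176), male Mac II (0.138) and male Mac V library (0.0665). Spi1 and Cebpb, factors of the myeloid lineage, were present in at least 97% of the cells of either subtype in each animal and were not called (adjusted p 0.433 and 0.787).

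Of 17 adhesion and crawling genes 3 were called, all higher in Mac V (among them Itga4 and Itgb7), against 0.355% of all genes tested. The median was -1.54. Itga4, the integrin alpha 4 chain that binds VCAM-1 on vessels, was at 1266 and 1153 CPM in Mac V and 191.8 and 288.1 CPM in Mac II (log2 fold change -2.38 ± 0.42, adjusted p 0.0238, lost without each library, 0.0976 to 0.214). Its partner Itgb7 was at 192.2 and 178.4 CPM in Mac V and 0 and 0.641 CPM in Mac II (adjusted p 0.0397), but the call was lost with the animal as a block (0.0688) and without the female Mac II (0.150), female Mac V (0.113) and male Mac V library (0.103). Itgax (CD11c) lay the other way, at 592 and 416 CPM in Mac II and 32.7 and 26.4 CPM in Mac V, and was not called (adjusted p 0.218, and 0.00363 in the fit of Mac II and Mac V alone). Itgam (CD11b) was at 92.4 and 32.8 CPM in Mac II and 411 and 379.2 CPM in Mac V (adjusted p 0.519). Itgb2, the beta chain that both pair with, was at 1248 and 1077 CPM against 1139 and 768 CPM, with overlapping libraries.

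No gene on the list common to mononuclear phagocytes was called (0 of 12), against 0.644% of all genes tested, and the list median was -0.34. Both Mac II libraries lay above both Mac V libraries in 3 members, and the reverse held in 5. Over all genes tested these shares were 20.8% and 20.1%. Lyz2 (lysozyme) was at 39633 and 44283 CPM in Mac II and 37708 and 39683 CPM in Mac V, and was present in every cell of both subtypes. Csf1r, the receptor for macrophage colony stimulating factor, was at 697 and 863 CPM against 1643 and 1265 CPM (adjusted p 0.726). Mertk, a receptor for the uptake of dead cells that marks tissue macrophages, was at 198.3 and 230.7 CPM in Mac II and 25.1 and 0.391 CPM in Mac V, in 36 of 47 Mac II cells against 2 Mac V cells (adjusted p 0.446). The Mac V cells therefore carried Lyz2 and Csf1r but almost no Mertk.

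Of the 4 genes that were given as markers of the contrast, Plac8 alone was called. Ccr2 was at 631 and 399 CPM in Mac II and 572 and 893 CPM in Mac V, so its libraries overlapped and its direction differed between the animals (log2 fold change -0.56 ± 0.59, adjusted p 0.809). Fn1 was at 1905 and 1709 CPM in Mac II and 1085 and 1686 CPM in Mac V (0.33 ± 0.97, adjusted p 0.985). Over the alternatives, libraries left out included, neither gene was called in any fit. Mmp12 was at 280.95 and 7.73 CPM in Mac II and 0.0956 and 0.326 CPM in Mac V (9.38 ± 2.02, adjusted p 0.0651). It reached 50 CPM in 9 of 27 female and 1 of 20 male Mac II cells and in no Mac V cell, and 1 cell held 86.8% of the male reads. DESeq2 called it and voom did not (adjusted p 0.191).

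Summed levels of Fn1 came from different spreads over cells, while the shares of cells with Ccr2 lay closer together. Ccr2 was at 50 CPM or more in 35 of 47 Mac II cells, and in 34 of 66 female and 30 of 45 male Mac V cells. Fn1 was at 50 CPM or more in 46 of 47 Mac II cells, but in 32 of 66 female and 27 of 45 male Mac V cells, where 59 cells carried it and the others were mostly at 0. Within Mac V, 47 cells had Ly6c2 without Ace, 47 had Ace without Ly6c2, 6 had both and 11 neither, each at 50 CPM or more, a split chosen after the values were seen. Fn1 was present in 46 of the 47 cells with Ly6c2 alone (median 2136 CPM) and in 6 of the 47 with Ace alone (median 0), and Ccr2 in 44 and 12. Plac8 (47 and 46 cells), Ifitm6 (45 and 43) and Ifitm2 (47 and 45) were present in nearly all cells of both kinds. Dab2 was at 50 CPM in none of them. Cd9, a gene called higher in Mac II, was present in 9 cells with Ly6c2 alone (median 0) and 39 with Ace alone (median 712 CPM). In Mac II, the 35 cells with Ccr2 also carried Mrc1 and Dab2, which follows from the presence of both genes in all 47 cells. No Mac V cell reached 50 CPM of Dab2, so the combination could not occur there.

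Class II, chemokine and cytokine genes gave 1 call, Cxcl16. Over all genes tested 0.644% were called in either direction. None of 11 class II and none of 11 dendritic cell genes was called, and H2-Ab1 was at 778 and 56.9 CPM in Mac II, in 8 of 47 cells, with 3 reads in Mac V (adjusted p 0.132). Of 16 chemokines, Cxcl16, a membrane-bound ligand, was called higher in Mac II, against 0.289% of all genes tested. It was at 44.5 and 11.2 CPM, present in 4 of 47 cells, with no read in Mac V, at least 1381-fold lower (adjusted p 0.00485). Its call was lost without the female Mac V library (0.0522) and in the fit of Mac II and Mac V alone (0.0553). Ccl6 (1128 and 1447 CPM in Mac II, 800 and 1251 CPM in Mac V) and Ccl9 (511 and 595 against 447 and 539 CPM) stood at like levels. Among 8 chemokine receptors, none called, Ccr1 was at 235.6 and 244.8 CPM in Mac II and 91 and 34.9 CPM in Mac V (adjusted p 0.756). Of 19 cytokines and growth factors tested none was called. Il1rn, the antagonist of the interleukin 1 receptor, was at 330.96 and 294.03 CPM in Mac II and 22.2 and 3.26 CPM in Mac V (adjusted p 0.398), Il18 at 411 and 501 against 38.7 and 68.4 CPM (0.523, present in 42 of 47 Mac II and 11 Mac V cells), and Il1b at 433 and 573 against 1330 and 576 CPM (0.892).

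Among genes that handle iron, metals and oxidants, 1 was called, higher in Mac II, against 0.289% of all genes tested. Fth1, the ferritin heavy chain that stores iron, was the 1 call among 18 oxidant handling genes, at 12494 and 16797 CPM in Mac II and 3189 and 3437 CPM in Mac V (log2 fold change 2.10 ± 0.29, adjusted p 0.00663). The call was lost without the female (0.0679) and the male Mac V library (0.0553). Ftl1, the light chain, was at 8649 and 9333 CPM against 3567 and 4254 CPM (adjusted p 0.0940). Mt1, a metallothionein that binds zinc and copper, was at 1366 and 1908 CPM against 19.5 and 41.4 CPM, in 47 of 47 Mac II and 9 Mac V cells (5.71 ± 1.39, adjusted p 0.105, and 0.00321 in the fit of Mac II and Mac V alone). Its close relative Mt2 had no read in Mac V and 90.5 and 61.2 CPM in Mac II. Sod1, a superoxide dismutase, lay the other way, at 287.3 and 497 CPM in Mac II and 840 and 1955 CPM in Mac V (adjusted p 0.348). Cybb, the catalytic subunit of the phagocyte oxidase, was at 1297 and 974 against 2024 and 2070 CPM (0.848).

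The 12 immediate early and heat shock genes and the 10 cell cycle genes gave 1 call each, both higher in Mac V. Over all genes tested 0.355% were called in that direction. Ier2, an early response gene, was at 1051 and 752 CPM in Mac V and 200.6 and 256.9 CPM in Mac II (log2 fold change -2.03 ± 0.40, adjusted p 0.0397, lost without each library, 0.0816 to 0.261). Of the list with Ier2, 9 genes had both Mac V libraries above both Mac II libraries, among them Fos (4357 and 4753 against 1868 and 2152 CPM, adjusted p 0.210). This held for 20.1% of all genes tested and for 1345 of the 4434 that averaged 50 CPM or more in either subtype. Ube2c, which acts in mitosis, was present in 5 Mac V cells and had no read in Mac II (adjusted p 0.0141, lost without the female, 0.120, and the male Mac II library, 0.110). Mki67 and Top2a were not called (adjusted p 0.603 and 0.962).

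**Figure D3:**
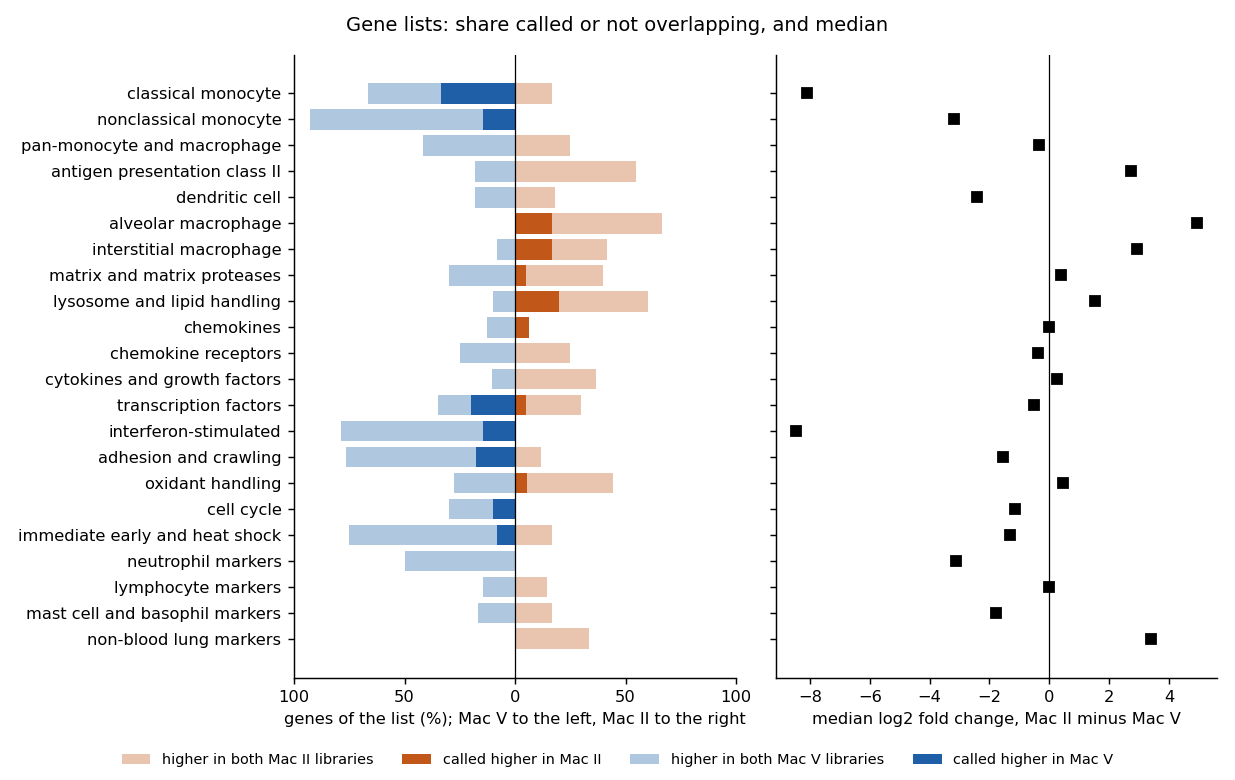
Left, the share of each gene list that was called (dark bars) or whose 2 libraries of one subtype lay above both of the other (pale bars, which include the called genes), with Mac V to the left and Mac II to the right of 0. Right, the list's median log2 fold change (Mac II minus Mac V), which runs from -8.48 for interferon-stimulated to 4.95 for alveolar macrophage genes. Over all genes tested 20.8% lay above with Mac II and 20.1% with Mac V. Among the 4434 genes that averaged 50 CPM or more in either subtype, 1131 and 1345 did so.

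Per cell, 25 genes separated the subtypes in both animals, meaning that they were at 50 CPM or more in at least 80% of the cells of one subtype and at most 20% of the other. Of the 18072 genes in the table, 20 (0.111%) did so for Mac II: Acp5, Axl, Pld3, Sulf2, Lpl, Dok2, Dab2, Cd200r1, Mrc1, Lmna, Ldhb, Itgax, Mt1, Plet1, Cd81, Il18, Shtn1, Myof, Dhrs3 and AU020206. For Mac V 5 did so (0.0277%): Ifitm3, Plac8, Hp, Clec4a1 and Ifitm6. Axl, a receptor for the uptake of dead cells, was at 1087 and 1189 CPM in Mac II and 48.8 and 82 CPM in Mac V, in all 47 Mac II cells. Acp5, the lysosomal acid phosphatase TRAP, was at 503 and 534 against 41.7 and 32.1 CPM, and Cd200r1, an inhibitory receptor, at 306.5 and 187.6 against 0.729 and 11 CPM. Of these 25 genes 6 were called in the fit over 8 subtypes (Dab2, Mrc1, Myof, Plac8, Hp and Ifitm6) and 22 in the fit of Mac II and Mac V alone. With every cell thinned to 100000 reads, 23 genes met the rule.

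By these genes no cell fell between the subtypes. Genes were picked in one animal by the same rule and the cells of the other animal were scored by the share of them at 50 CPM or more. All Mac II cells had the larger share of Mac II genes and all Mac V cells the larger share of Mac V genes, and 0 cells had at least 50% of both. In Mac II the median share of Mac II genes was 87.5% in each animal, and the lowest cell stood at 42.9%. In Mac V the median share of Mac V genes was 100% in the female and 85.7% in the male, and no Mac V cell had more than 35.7% of the Mac II genes. Of the 28 Mac II genes picked in the female 20 were also picked in the male (71.4%), and of the 32 picked in the male 20 in the female (62.5%). As the subtype names may have been drawn from the same expression values, this is a description of the labels and no test of them.

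**Figure D4:**
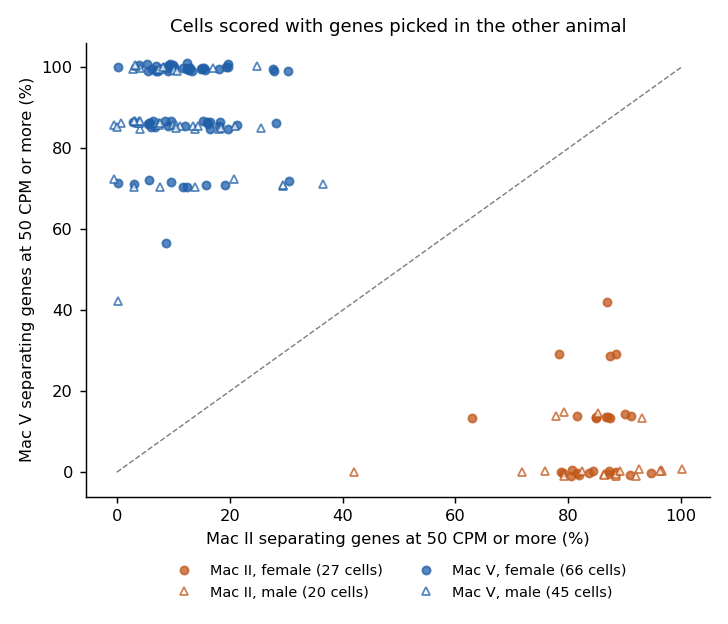
Each point is 1 cell, placed by the percentage of Mac II separating genes (x axis) and Mac V separating genes (y axis) at 50 CPM or more, with genes picked in the other animal and points moved by up to 1 percentage point to show overlaps. The 47 Mac II cells (orange) lie right of the dashed line of equal shares and the Mac V cells (blue) left of it.

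Mac II cells carried more genes. At 100000 reads per cell, Mac II cells held a median of 3897 genes (female) and 3846 genes (male), and Mac V cells 2693 and 2727, with 1 male Mac V cell too shallow to count. The mean of the animals' medians was 3871 ± 36.4 genes (SD, n = 2) in Mac II and 2710 ± 24 in Mac V. Medians of the 2 animals lay close together and far from those of the other subtype, though single cells overlapped (2570 to 5337 in Mac II, 1312 to 4248 in Mac V). Without thinning the medians were 5190 and 5187 against 3534 and 3698 genes. No test was run on these 2 values a side.

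Most genes called higher in Mac II reached their highest level in another macrophage subtype of the same lungs, and most genes called higher in Mac V reached it in Mac V. Of the 12 named Mac II genes, 10 were within 2-fold of their Mac II level in Mac III, and only 3 had their highest level in Mac II (7 in Mac III and 2 in Mac IV). Cd9, for example, was at 5424 and 5203 CPM in Mac III, and Dab2 at 1364 and 1719 CPM in Mac IV. All 12 named Mac V genes were highest in Mac V among Mac II, III, IV and V. Other labelled cell types were not compared. Pla2g7 (797 and 559 CPM), Ifitm2 (873 and 917 CPM) and Limd2 (449 and 765 CPM) were also present in Mac IV. So were Adgre5 (317.5 and 86.5 CPM), Nr4a1 (259.6 and 133.4 CPM) and Plac8 (246.5 and 101.2 CPM). Over all calls, 12 of the 44 genes higher in Mac II were highest there, 21 in Mac III and 11 in Mac IV, while 46 of the 54 higher in Mac V were highest in Mac V and 8 in Mac IV. Ccr2 and Fn1 ran across this division, since Ccr2 was at 1.12 and 3.23 CPM and Fn1 at 327.3 and 285.6 CPM in Mac III, below both Mac II and Mac V. Mac II thus combined levels of Dab2, Mrc1, Spp1 and Siglecf near those of Mac III with a Ccr2 level that overlapped that of Mac V and an Fn1 level whose lower library (1709 CPM) lay just above the higher Mac V library (1686 CPM). The order of levels over subtypes was not tested.

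**Figure D5:**
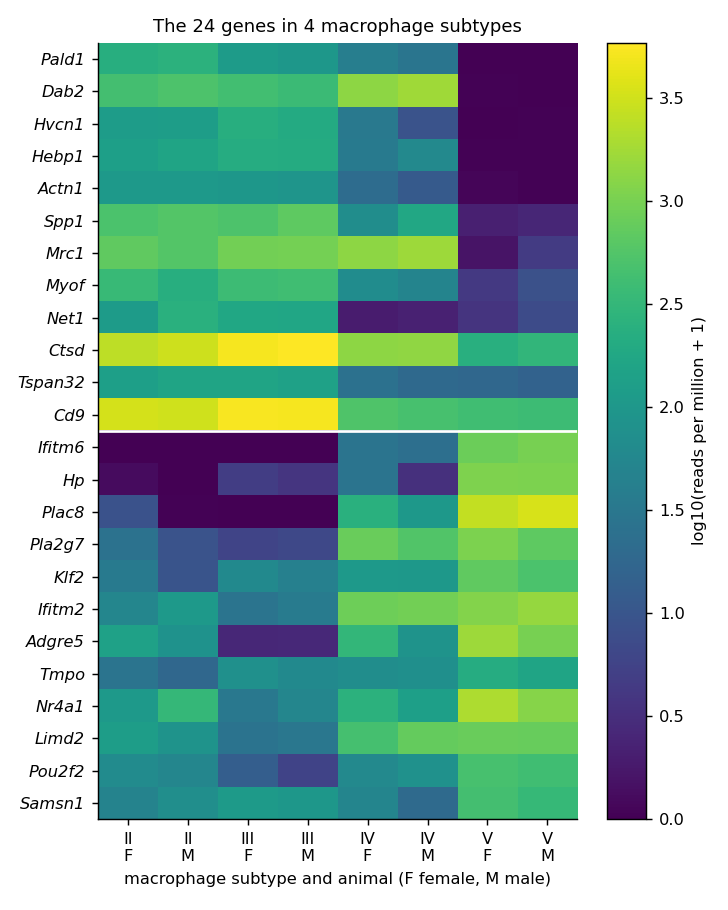
Level (colour, log10(CPM + 1)) of the 24 named genes in the summed libraries of Mac II, III, IV and V, female (F) and male (M). The upper 12 genes are high in Mac II and III, several also in Mac IV, and lower in Mac V, and the lower 12 are highest in Mac V.

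Markers of other cells were low in both subtypes, with the exception of neutrophil genes. The 6 neutrophil markers summed to 118.6 and 195.5 CPM in Mac II and 714 and 1092 CPM in Mac V. S100a8 made up most of this (102.4 and 169.9 CPM in Mac II, 487 and 719 CPM in Mac V), followed by Csf3r (16.1 and 25.5 against 199.5 and 302.9 CPM), and both genes are also known from classical monocytes. Ngp, Camp and Retnlg, which mark neutrophils more strictly, were under 10 CPM in all 4 libraries. Lymphocyte markers summed to 0.114 and 13 CPM in Mac II and 26.1 and 1.63 CPM in Mac V, with 7 of 8 under 10 CPM in all libraries. All 6 mast cell and basophil markers were under 10 CPM. Markers of epithelium, endothelium and fibroblasts summed to 35 and 24.7 CPM against 57.5 and 17.9 CPM, with Epcam, Cdh5, Col1a1 and Col3a1 under 10 CPM. None of these genes was called, and their part in the results was not tested. Cells from run DC35 alone, which leaves 1 female and 2 male plates, gave 32 calls higher in Mac II and 34 higher in Mac V, of which 46 were among the 98.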

How the data were processed

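The authors deposited 1 table of raw read counts per gene (18072 genes) and single cell, with a table of cell labels. Per the submitters' processing notes, STAR 2.5.2b and HTSeq 0.10 were used and the build named is GRCh38, a human build although the samples are mouse, so no coordinate or sequence here rests on it. The annotation, strand setting and any filter on cells or genes are not given in the sources used here. Counts were summed per animal and subtype and fitted with edgeR 4.0.16 (quasi-likelihood, TMM, filterByExpr, 1 coefficient per subtype) in R 4.3.3 over the 8 subtypes that had 20 or more cells per animal (16 libraries). P-values were adjusted by Benjamini-Hochberg over 15225 genes and called under 0.05. Code was tested on simulated data.

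Named genes were the 12 largest called changes per direction with the same sign in both animals, a mean of at least 50 CPM and 50 CPM in at least 50% of cells of the higher subtype in each animal, plus 23 gene lists, whose called genes and defining markers are given, except for a few that are not reported here. Members, lists and rule were chosen with earlier results of these data known. A fold against 0 reads uses 3 reads over all cells of the subtype. Replicates pair by animal: both subtypes come from the same 2 mice, though the female minus male differences of Mac II and Mac V correlated at 0.079 over 5596 genes. Alternatives were DESeq2 1.42.0, limma 3.58.1 (voom), other subtypes in the fit, other scaling, filter, library size and gate, an animal block, 1 run, thinning to 100000 reads and leaving out each library.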

Additional observations from a re-analysis of the deposited data

Results flagged for a closer look

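In 4 genes of the lists that averaged at least 50 CPM in either subtype, the difference between Mac II and Mac V had opposite directions in the female and the male. Ccr2 was included as a marker of the contrast, and the other 3 moved by at least 1.5-fold in each animal. Each animal gives 1 library per subtype, so these differences were not tested. Ccr2 was 0.14 higher on the log2 scale in Mac II than in Mac V in the female and -1.16 in the male, a gap of 1.3. For Cd74, the invariant chain of class II molecules, the log2 ratios were 4.51 in the female (1562 against 68.7 CPM) and -0.74 in the male (102.4 against 170.6 CPM), a gap of 5.24. Osm, a cytokine of the interleukin 6 family, gave -1.50 in the female (83.7 against 237.4 CPM) and 1.47 in the male (288.5 against 104.4 CPM), a gap of -2.97. Ier3, an early response gene, gave -1.55 in the female (32.9 against 96.1 CPM) and 1.04 in the male (133.4 against 64.7 CPM), a gap of -2.59.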

How the results depend on the processing

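The share of tested genes that was called, 0.644%, became 2.14% in the fit of Mac II and Mac V alone, 0.115% (18 genes) with all 15 subtypes, 9.7% (1477 genes) with DESeq2, 4.45% (678 genes) with voom, 1.28% with thinned cells and between 0.227% (37 genes) and 0.379% (62 genes) when 1 library was left out, where the lone library is assumed to vary like those of other subtypes. RLE scaling (97 genes), no filter (0.589%), CD45 cells alone (96 genes), labelled coverage as library size (0.671%) and run DC35 alone (66 genes) stayed within 1.5-fold of 98 genes. With the animal as a replicate block, which is paired because both subtypes come from the same mice, there were 100 calls (0.657%), 86 of them among the 98, and the block kept the calls of all 24 named genes but ended those of Cidec and Itgb7. Thinning kept 80 of the 98. The share of calls that was higher in Mac II, 44.9%, was 55.1% under DESeq2, 57.4% without the male Mac II library and 28.9% without the male Mac V library (13 against 32 genes). No called gene changed direction in any fit. Leaving out the female Mac II library moved the median log2 fold change of all genes by -0.14. Of the 24 named genes, 9 were called with each library left out in turn and 7 in every other alternative. The 25 separating genes became 11 at 200 CPM, 53 at shares of 70% and 30%, 8 at 90% and 10%, and 35 to 39 in 1 animal alone. Unthinned, the median was 5189 genes in Mac II and 3616 in Mac V. The fit rests on 2 animals and 47 Mac II cells, and its common biological coefficient of variation was 1.01.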
